A study of Mus musculus with 6 samples.

Results

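The 9 genes described here encode Polycomb repressive complex 2 (PRC2) and its best-known partners: Ezh2, Ezh1, Eed, Suz12, Rbbp4, Rbbp7, Jarid2, Mtf2 and Phf19. They were taken as a family by name, with earlier results of these data known, and every probe set annotated to 1 of them alone was used. This gave 30 probe sets of the 45037 analysed, and 9 genes of the 18194 that have a probe set of their own.

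PRC2 is the enzyme complex that places methyl groups on lysine 27 of histone H3 (H3K27me), the mark of silent developmental genes in embryonic stem cells (ESCs). Ezh2, or its paralog Ezh1, carries the methyltransferase activity and works only when held by Eed and Suz12, while the histone-binding proteins Rbbp4 and Rbbp7 complete the core. Mtf2 and Phf19 are Polycomb-like proteins, which bring the core to CpG-rich DNA, and Jarid2 belongs to an alternative form of the complex. ESCs that lack Ezh2, Eed or Suz12 renew themselves but differentiate poorly.

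The cells were undifferentiated mouse induced pluripotent stem cells (iPSCs), made from fibroblasts of Nanog-GFP reporter embryos with retroviral Oct3/4, Sox2, Klf4 and c-Myc, with a dsRed retrovirus as a marker of transgene silencing. The 3 (−)/(+) clones (clones 1, 2 and 3) were reprogrammed without 3i and received it after colonies had been picked, and the 3 (+)/(+) clones (clones 4, 5 and 6) received it in both phases. The mixture called 3i blocks GSK3 (CHIR99021), the MEK-ERK pathway (PD184352) and the FGF receptor (SU5402), and all 6 clones shared it during maintenance, on feeder cells. RNA of each clone was hybridised to 1 Affymetrix Mouse Genome 430 2.0 array. Each line is 1 clone, so an integration or a chromosomal change of that clone belongs to its values, and the arrays measure bulk RNA, in which fewer cells of a type and less RNA per cell cannot be told apart.

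The unit is the MAS 5.0 signal of a probe set, a linear intensity which the authors scaled to the same trimmed mean on every array. Array medians ran from 74.3 to 75.7 in the (−)/(+) and from 64.1 to 70.2 in the (+)/(+) clones, and the median log2 fold change of all tested probe sets was -0.05. Signals of clones 1 to 6 are always given in that order. A fold change below is always (+)/(+) over (−)/(+), on the scale of log2(signal + 16), tested with limma and adjusted over 22518 probe sets. Pluripotent cell markers were bright in every clone, with 0 of 12 tested called. Of 19 fibroblast and feeder markers with a probe set of their own, 17 were tested, and 5 were lower and 0 higher in (+)/(+) iPSCs. Their summed signal ran from 29749 to 39358 in the (−)/(+) and from 19972 to 23296 in the (+)/(+) clones. Col1a2, a fibrillar collagen, gave 1441, 1701 and 2096, then 468, 694 and 558 (log2 fold change -1.58, limma adjusted p = 0.0043), and Col1a1, too dim to be tested, gave 101, 101 and 86.2, then 44.2, 45.3 and 37.3. Genes of chromosome 11 were raised in clone 1 (median shift of 0.27 on the log2 scale over 502 genes) and those of chromosome 8 in clone 4 (0.41 over 329 genes), and these were the only chromosomes with 20 or more genes whose median shift passed 0.08 in any clone.

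The upstream sequences of Mtf2, Ezh2 and Suz12 are shown because these genes stand for the 3 patterns described below: a difference between the groups, a level that hardly varied, and a level that was highest in 1 clone. Each is the 250 bases before an annotated start (RefSeq, GRCm38.p6), for Mtf2 the first of 2, written 5′ to 3′ on the strand of the gene. Capitals mark E2F motifs (TTTNGCGC or TTTNCCGC), CCAAT boxes (CCAAT) and GC boxes (GGGCGG), each searched on both strands.
Mtf2 upstream, chr5:108065424-108065673, plus strand: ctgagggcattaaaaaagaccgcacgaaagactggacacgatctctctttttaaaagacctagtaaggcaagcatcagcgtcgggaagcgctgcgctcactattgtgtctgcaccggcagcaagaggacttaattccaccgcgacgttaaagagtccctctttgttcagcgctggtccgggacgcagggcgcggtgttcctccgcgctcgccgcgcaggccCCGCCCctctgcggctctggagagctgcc
Ezh2 upstream, chr6:47595031-47595280, minus strand: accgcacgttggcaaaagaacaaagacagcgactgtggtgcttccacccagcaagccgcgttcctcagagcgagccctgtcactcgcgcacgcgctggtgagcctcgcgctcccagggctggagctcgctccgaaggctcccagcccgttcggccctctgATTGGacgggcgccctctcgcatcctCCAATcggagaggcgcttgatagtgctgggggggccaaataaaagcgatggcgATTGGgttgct
Suz12 upstream, chr11:79992856-79993105, plus strand: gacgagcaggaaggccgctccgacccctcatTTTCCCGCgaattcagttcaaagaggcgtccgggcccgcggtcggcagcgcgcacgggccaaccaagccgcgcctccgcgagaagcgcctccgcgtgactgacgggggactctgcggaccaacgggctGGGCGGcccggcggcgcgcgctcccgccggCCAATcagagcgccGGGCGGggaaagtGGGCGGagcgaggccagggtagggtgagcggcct
These windows differ in their letters. Mtf2 holds 1 GC box, 29 bases before the start, and no CCAAT box or E2F motif. The window before the second Mtf2 start, chr5:108077915-108078164, holds 1 CCAAT box at 98 bases and no GC box or E2F motif. Ezh2 holds 3 CCAAT boxes, 90, 64 and 11 bases before the start, and no GC box. Suz12 holds 1 E2F motif at 219 bases, 1 CCAAT box at 61 bases and 3 GC boxes at 91, 47 and 34 bases. Over 32851 mouse promoters of the same length, 33.8% hold a CCAAT box, 32.7% a GC box and 2.89% an E2F motif. Of the other members, Phf19 holds an E2F motif as well, and Eed and Ezh1 hold none of the 3 motifs. A match is a string of letters and not a shown binding site.

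Across the family, Mtf2 alone passed the test. Of the 30 probe sets, 25 were bright enough to be tested, standing for 8 of the 9 genes, and 3 were higher in (+)/(+) iPSCs and 0 lower at an adjusted p under 0.05 in limma, all 3 of them for Mtf2. Over all tested probe sets the share called was 3.12%, with 1.35% higher and 1.77% lower. Read by their brightest probe set, 2.96% of all genes were called, 1.55% higher and 1.41% lower, and 1 of the 8 member genes was. Without adjustment 5 of the 25 had a p under 0.05, against 21.2% of all. The groups did not overlap in 6 of the 25, against 27.1% of all tested. Apart from Rbbp4 1456260_at, every probe set in both counts was of Mtf2, so 1 gene was counted repeatedly. These counts therefore do not describe the family as a whole. Read by their brightest probe set, 1 of the 8 tested genes, Mtf2, had an unadjusted p under 0.05 and groups apart. The 3 calls depend on the processing: they were all lost in several alternatives given below for Mtf2.

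**Figure D1:**
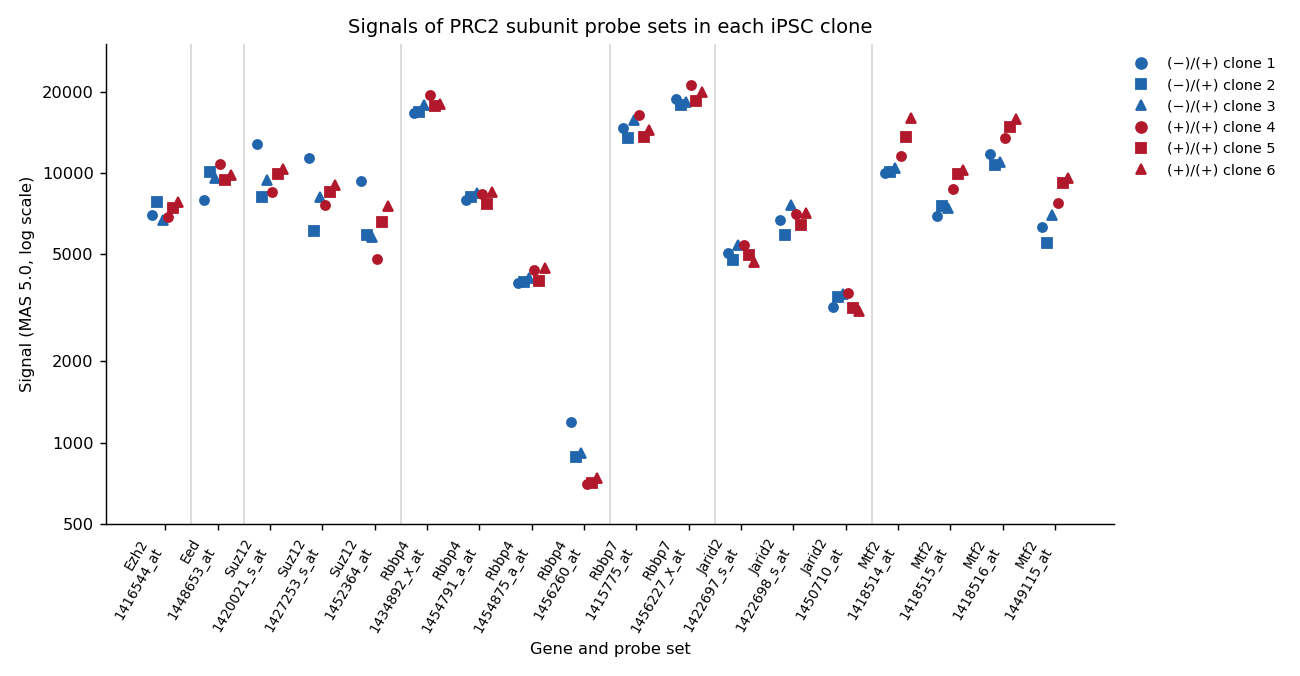
MAS 5.0 signals (vertical axis, log scale) of the 18 member probe sets with a mean signal above 500, 1 point per clone, with (−)/(+) clones in blue and (+)/(+) clones in red. The 4 bright Mtf2 probe sets are higher in all (+)/(+) clones, Suz12 is highest in clone 1, and heights of different probe sets are not to be compared.

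Ezh2, the catalytic subunit that dominates in dividing cells, was bright and nearly level. Its single probe set (1416544_at, chr6:47530274-47595270) gave 6955, 7806 and 6669 in (−)/(+) iPSCs, then 6858, 7435 and 7777 in (+)/(+) iPSCs. The groups overlapped fully, with the highest and lowest values both in (−)/(+) clones. The means were 7143 ± 592 and 7357 ± 464 (SD, n = 3 each), a log2 fold change of 0.04 with a 95% interval from -0.16 to 0.25 (limma, adjusted p = 0.82). Its range over the 6 clones was 0.23 on the log2 scale, lower than for most bright probe sets, whose median range was 0.46. Clone 3, which had the lowest Ezh2 signal, was also low over the 20 nearest bright genes of chromosome 6, from Kdm7a to Snx10 (a median shift of -0.28, against -0.04 to 0.06 in the other clones).

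Ezh1, the paralog that prevails in resting cells, was dim. The brighter probe set, 1449023_a_at (chr11:101191115-101226463), gave 575, 340 and 326 in (−)/(+) iPSCs, then 454, 651 and 527 in (+)/(+) iPSCs. Clone 1 stood above the other (−)/(+) clones and within the range of the (+)/(+) clones. The log2 fold change was 0.41, with an interval from -0.07 to 0.90 (limma, adjusted p = 0.31). Without clone 1, whose chromosome 11 genes were raised, it was 0.67 (limma, adjusted p = 0.062). Without clones 1 and 4, a choice made after seeing the data, it was 0.79 (limma, adjusted p = 0.034). Clone 1 was the highest (−)/(+) clone and clone 4 the lowest (+)/(+) clone here. Leaving both out could therefore only widen the difference. The 20 nearest bright genes of Ezh1, from Cnp to Nbr1, had a median shift of 0.40 in clone 1 and of -0.12 to 0.03 in the others. The other tested Ezh1 probe set, 1418290_a_at, pointed the other way (255, 179 and 177, then 125, 206 and 168, log2 fold change -0.28, limma adjusted p = 0.50), so the probe sets of this gene disagree. Both of its remaining probe sets lay at 51.1 or below in every clone and were not tested.

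Eed, which binds the methylated histone tail and so lets the complex spread its own mark, was bright in all clones. Probe set 1448653_at (chr7:89954654-89980976) gave 7940, 10078 and 9563 in (−)/(+) iPSCs, then 10778, 9400 and 9826 in (+)/(+) iPSCs. Only clone 1 stood apart, on the low side. The means were 9194 ± 1116 and 10001 ± 706 (SD, n = 3 each), a log2 fold change of 0.13 with an interval from -0.10 to 0.36 (limma, adjusted p = 0.52), and 0.02 without clone 1. The second Eed probe set, 1453830_at, lay between 47.8 and 74.3 and was not tested.

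Suz12, the scaffold that holds the core together, had the widest ranges among the bright core subunits. Its bright probe sets had ranges of 0.66, 0.9 and 0.95 on the log2 scale, while Rbbp4 1456260_at reached 0.75. Clone 1 was the highest, but the other clones differed among themselves too, and the groups overlapped. Probe set 1420021_s_at (chr11:79993106-80034123) gave 12831, 8122 and 9404 in (−)/(+) iPSCs, then 8506, 9917 and 10291 in (+)/(+) iPSCs. Probe set 1427253_s_at gave 11354, 6061 and 8104, then 7609, 8515 and 8976. Probe set 1452364_at gave 9308, 5865 and 5779, then 4811, 6554 and 7520. In each, clone 1 was highest and the (+)/(+) clones lay inside or close to the range of the (−)/(+) clones. The log2 fold changes were -0.06, 0.02 and -0.14, with intervals from -0.39 to 0.27, from -0.39 to 0.43 and from -0.58 to 0.30 (limma, adjusted p = 0.85, 0.96 and 0.73). Without clone 1 they were 0.13, 0.25 and 0.09.

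The high Suz12 signal of clone 1 lay on a chromosome that was raised in that clone. The brightest Suz12 probe set was 0.41 above the median of the 6 clones on the log2 scale in clone 1, the 20 nearest bright genes (from Aldoc to AI662270) 0.28, and chromosome 11 as a whole 0.27. In clone 2 Suz12 was at -0.25 while its neighbours were at -0.01, and in clone 4 at -0.18 while they were at -0.07, so the neighbours did not move with it there. The part of the chromosome in the Suz12 values was not tested. Of the dim Suz12 probe sets, 1420020_at gave 621, 218 and 199, then 310, 526 and 392, with clone 1 again the highest. Its log2 fold change was 0.39 over all clones (limma, adjusted p = 0.57) but 0.89 without clone 1 (limma, adjusted p = 0.049), a value that the bright probe sets of the gene did not share. The other 2 dim probe sets, 1420022_s_at and 1449661_at, had log2 fold changes of 0.30 and 0.06 and did not pass.

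**Figure D2:**
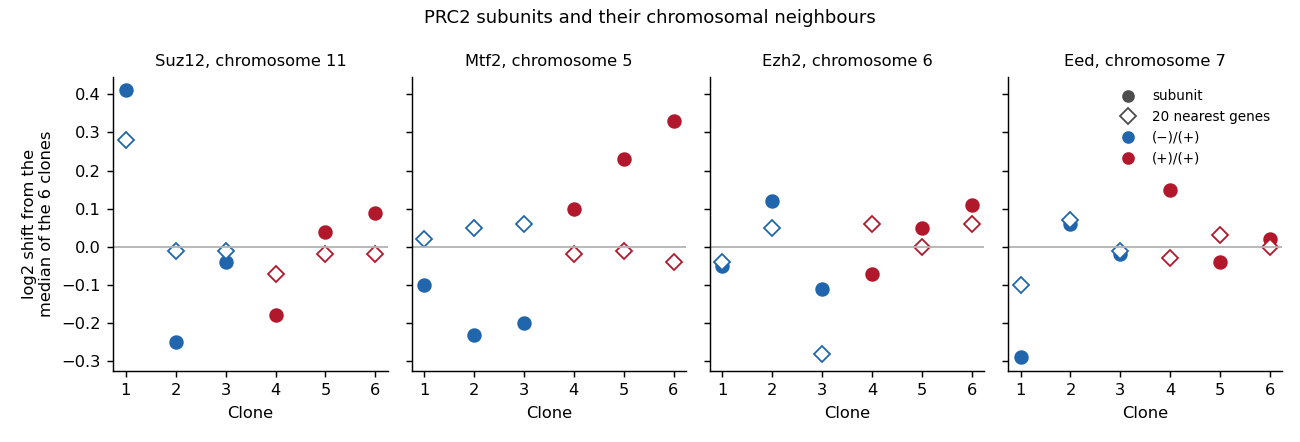
Distance of every clone to the median over all 6 (vertical axis, log2) for the brightest probe set of Suz12, Mtf2, Ezh2 and Eed (filled circles) and as a median over the 20 nearest bright genes (open diamonds), by clone on the horizontal axis, with (−)/(+) in blue and (+)/(+) in red. In clone 1 Suz12 (0.41) and its neighbours (0.28) are both raised, while Mtf2 runs from -0.23 to 0.33 beside neighbours between -0.04 and 0.06.

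Rbbp4 and Rbbp7 are close paralogs that also serve histone deacetylase, chromatin assembly and remodelling complexes. Of their 6 probe sets, 5 varied little over the clones. For Rbbp4 (chr4:129307100-129335370), 1434892_x_at gave 16713, 16766 and 17788, then 19419, 17643 and 17926, with a log2 fold change of 0.10 (interval from -0.06 to 0.26). For Rbbp7, on chromosome X, 1415775_at gave 14662, 13483 and 15660, then 16304, 13595 and 14357, with a log2 fold change of 0.01 (interval from -0.19 to 0.22). None of these 5 passed in limma (adjusted p of 0.43 to 0.99), and their ranges over the clones, 0.14 to 0.27 on the log2 scale, were below the median range of 0.46. The design of the array marks 1434892_x_at and the second Rbbp7 probe set, 1456227_x_at, as open to cross-hybridisation, so the paralogs are not surely told apart there.

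The remaining Rbbp4 probe set, 1456260_at, varied more, with a range of 0.75 on the log2 scale. It gave 1194, 888 and 917 in (−)/(+) iPSCs, then 703, 707 and 742 in (+)/(+) iPSCs, so every (+)/(+) clone was below every (−)/(+) clone. The log2 fold change was -0.46, with an interval from -0.77 to -0.15, and it did not pass in limma (adjusted p = 0.099). Since the 3 other Rbbp4 probe sets had log2 fold changes of -0.00 to 0.10, the lower signal was limited to that probe set among the 4 of the gene.

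Jarid2, a partner that recruits PRC2 and stimulates it, was level as well. Its brightest probe set, 1422698_s_at on chromosome 13, gave 6709, 5858 and 7592, then 7055, 6411 and 7101. The groups overlapped, and the log2 fold change was 0.04, with an interval from -0.20 to 0.27 (limma, adjusted p = 0.88). The other 2, 1422697_s_at and 1450710_at, had log2 fold changes of -0.02 and -0.05, with intervals that stayed between -0.28 and 0.19. Phf19, a Polycomb-like protein as Mtf2 is, was near the background of the array: both of its probe sets lay at 86.4 or below in every clone and were not tested.

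Mtf2, the Polycomb-like protein known in ESCs for carrying PRC2 to CpG islands, was higher in the (+)/(+) iPSCs by about the same amount in 4 bright probe sets (chr5:108065660-108109219). Probe set 1418516_at gave 11738, 10701 and 10946 in (−)/(+) iPSCs, then 13510, 14819 and 15870 in (+)/(+) iPSCs, and 1418515_at gave 6925, 7549 and 7378, then 8672, 9869 and 10278. Probe set 1449115_at gave 6287, 5483 and 6960, then 7741, 9166 and 9563. Probe set 1418514_at gave 10022, 10083 and 10434, then 11584, 13568 and 15926. In all 4 the lowest (+)/(+) clone, always clone 4, was above the highest (−)/(+) clone.

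The size of the difference was modest. For 1418516_at the means were 11128 ± 542 and 14733 ± 1182 (SD, n = 3 each), 32.4% higher, a log2 fold change of 0.40 with a 95% interval from 0.21 to 0.59 (limma, adjusted p = 0.038). For 1449115_at they were 6243 ± 740 and 8823 ± 958, 41.3% higher, a log2 fold change of 0.50 with an interval from 0.25 to 0.75 (limma, adjusted p = 0.046). For 1418515_at the log2 fold change was 0.40 (interval from 0.19 to 0.60, limma adjusted p = 0.047), and for 1418514_at it was 0.42 (interval from 0.17 to 0.66, limma adjusted p = 0.067), which did not pass. The 4 probe sets were designed on 1 transcript sequence and are repeated readings of the same RNA, not independent evidence. Under every alternative the 4 remained higher, by 0.30 to 0.66 on the log2 scale.

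The calls were less stable than the direction. None of the 4 passed after quantile normalization (adjusted p of 0.084 to 0.14), without the filter on dim probe sets (0.098 to 0.16), in eBayes without trend (0.12 to 0.17), in the methods' t-test after adjustment (0.18 to 0.25), or when clone 2, 3, 5 or 6 was left out, with the highest values without clone 6 (0.17 to 0.23). All 4 passed after scaling to a common median, with arrayWeights, and without clones 1 and 4. Clones 1 and 4 were chosen after seeing the data, and leaving out clone 4, the lowest (+)/(+) clone, raises the difference. Relative to the median of all tested probe sets, the log2 fold change was 0.45 to 0.55 as reported, 0.46 to 0.56 after scaling to a common median and 0.31 to 0.43 after quantile normalization.

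**Figure D3:**
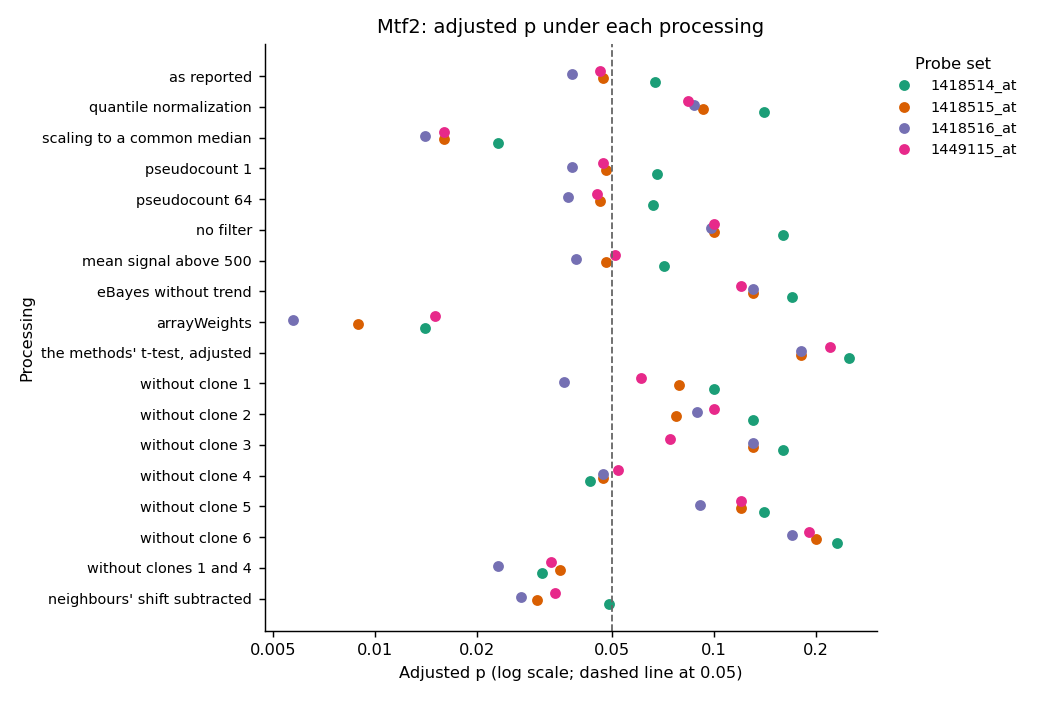
Benjamini-Hochberg adjusted p (horizontal axis, log scale, dashed line at 0.05) of the 4 bright Mtf2 probe sets under each processing (vertical axis). As reported 3 of 4 points lie below 0.05, after quantile normalization or without clone 6 none does, and with arrayWeights all do.

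The neighbourhood of Mtf2 on chromosome 5 did not move with it. The 20 nearest bright genes, from Nudt9 to Golga3, had median shifts of 0.02, 0.05 and 0.06, then -0.02, -0.01 and -0.04, while Mtf2 itself was at -0.10, -0.23 and -0.20, then 0.10, 0.23 and 0.33. With the local shift subtracted from each member, all 4 probe sets passed in limma (adjusted p of 0.027 to 0.049). The neighbours lay slightly lower in the (+)/(+) clones, so subtracting their shift could only widen the difference. The part of the chromosome in the Mtf2 values was not tested. The fibroblast and feeder markers given above were lower where Mtf2 was higher, and their part in the Mtf2 difference was not tested. Of the dim Mtf2 probe sets, 1445151_at went the other way, with every (+)/(+) clone below every (−)/(+) clone. It gave 300, 350 and 319, then 235, 273 and 280 (log2 fold change -0.28, limma adjusted p = 0.30). Probe set 1459811_at gave 200, 231 and 184, then 153, 446 and 344 (0.46, limma adjusted p = 0.42), and the groups overlapped. With all its probe sets averaged, the gene had a log2 fold change of 0.32 and did not pass in limma (adjusted p = 0.20).

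**Figure D4:**
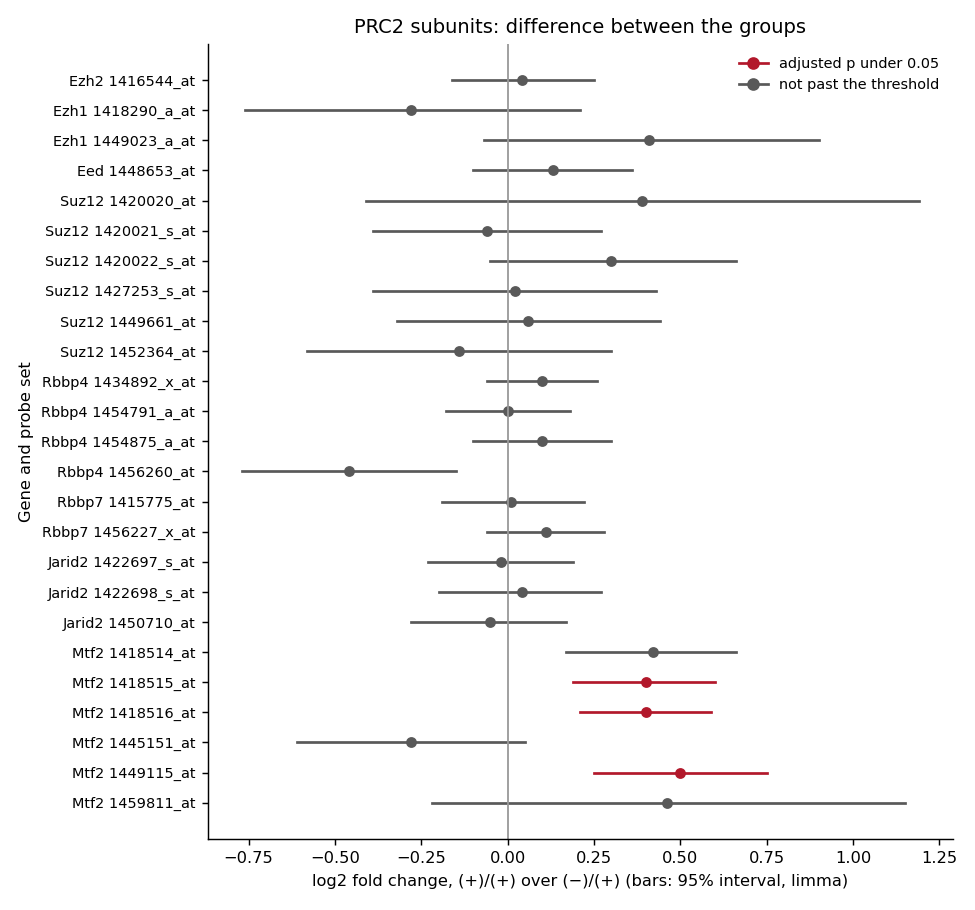
Log2 fold change, (+)/(+) over (−)/(+), of the 25 tested member probe sets (points) with 95% intervals from limma (bars), grouped by gene on the vertical axis and with calls in red. The 3 called probe sets are all of Mtf2 (0.40 to 0.50), and the widest intervals belong to dim probe sets of Suz12, Ezh1 and Mtf2.

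The genes whose pattern over the 6 clones was most like that of a core subunit were found among 11178 genes by Pearson's r. This is a description, since clones and chromosomes are shared. The top 3 of so many genes over only 6 clones also reach a high r by selection alone. Whether they share a chromosome with the subunit more often than other genes do was not tested. For Suz12 they were Slc25a11 (0.996) and Aftph (0.994), both on chromosome 11 as Suz12 is, and Smim10l2a (0.992). For Eed they were Ttc27 (0.996), Ngrn (0.993) and Erf (0.989), of which Ngrn and Erf lie on chromosome 7 with Eed. For Ezh2 they were Cmc1 (0.986), Prkd2 (0.981) and Copg2 (0.98), the last of these on chromosome 6 with Ezh2.

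Around PRC2, none of the related gene lists held a called gene, with each gene read by its brightest probe set. Over all tested genes 2.96% were called, so lists this short would hold few or no calls at that share. The 0 calls are therefore no result about the lists. An unadjusted p under 0.05 in limma was found for 21.2% of all tested probe sets. That share, like those for groups apart below, counts probe sets, dim and repeated ones included. The lists count each gene once, so such comparisons are rough. Of 6 further accessory proteins of PRC2, 6 were tested and 0 called (0 with an unadjusted p under 0.05, median log2 fold change 0.07, against -0.05 for all tested genes). Aebp2, which shares a form of the complex with Jarid2, gave 4238, 5202 and 4124, then 3336, 4640 and 4543. Epop, which links PRC2 to elongin, gave 353, 325 and 383, then 282, 294 and 310, so that the groups were apart but without a call (log2 fold change -0.24, limma adjusted p = 0.35).

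PRC1, the sister complex that ubiquitinates histone H2A, had 17 of 20 genes tested and 0 called, with 4 at an unadjusted p under 0.05 and a median log2 fold change of -0.14. In 5 of the 17 every (+)/(+) clone was below every (−)/(+) clone, and in 0 above, where 16.6% and 10.5% of all tested probe sets were so. Kdm2b, which tethers a variant PRC1 to CpG islands, was one of these, at 6354, 5643 and 6296, then 4823, 5098 and 4277 (log2 fold change -0.37, limma adjusted p = 0.073). The catalytic subunit Rnf2 gave 4736, 6093 and 5414, then 5730, 5908 and 5687, and the groups overlapped (log2 fold change 0.10).

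Of 7 genes for the removal of Polycomb marks, 6 were tested and 0 called, with 2 at an unadjusted p under 0.05 and a median log2 fold change of -0.18. Kdm6a, an H3K27 demethylase on chromosome X, gave 1185, 1516 and 1357, then 1453, 1780 and 1851 (log2 fold change 0.32, limma adjusted p = 0.21). Kdm6b, the other active one, was named after its values were seen: 1180, 909 and 969, then 581, 757 and 794 (-0.51, limma adjusted p = 0.098), with the groups apart in the direction opposite to Kdm6a. Uty, the copy on chromosome Y, also named afterwards, was at 14.2 in clone 5 and at 485 to 680 in the other clones. Among 9 genes of the MLL/COMPASS complexes, which set the opposing H3K4 mark, 9 were tested and 0 called, with 3 at an unadjusted p under 0.05 and a median of -0.17.

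Rbbp4 and Rbbp7 sit in other complexes too, and of 24 genes for these 22 were tested and 0 called. Of the 22, 9 had an unadjusted p under 0.05 in limma, beside 21.2% of all tested probe sets. The share over genes was not computed, so no excess is read from this. The groups were apart in 4 with (+)/(+) higher and in 6 with (+)/(+) lower, where 10.5% and 16.6% of all tested probe sets were so. The median log2 fold change was -0.08. Hat1, the acetyltransferase that works with Rbbp7 on new histone H4, gave 14498, 12895 and 11454, then 15805, 15294 and 17907 (log2 fold change 0.34, limma adjusted p = 0.095), with the groups apart. The deacetylase Hdac1 gave 8082, 8274 and 8846, then 8934, 7910 and 9277, which overlap. Hdac2 gave 5480, 6395 and 6832, then 7442, 7457 and 6890 (0.22, limma adjusted p = 0.23), with the groups apart. Of 10 tested proliferation and E2F genes 0 were called, with 4 at an unadjusted p under 0.05 and a median of 0.12. Pcna, the sliding clamp of DNA replication, gave 17878, 17633 and 19935, then 22955, 19878 and 22625 (0.24, limma adjusted p = 0.14).

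The developmental genes that PRC2 is known to hold silent in ESCs were mostly near the background in both groups. Of 47 such genes 44 had a probe set of their own and 18 were bright enough to test, with 0 called. At an unadjusted p under 0.05 in limma there was 1, against 21.2% of all tested probe sets. This was Hoxa9, named after its values were seen, which gave 179, 87 and 128, then 222, 160 and 226. Its log2 fold change was 0.60 (limma, adjusted p = 0.20), and the groups overlapped. The median log2 fold change of the 18 was 0.16, from -0.48 to 0.6, against -0.05 for all tested genes. The summed signal of the 44 genes ran from 3493 to 3838 in the (−)/(+) and from 3726 to 3990 in the (+)/(+) clones. The brightest, Olig1, a factor of the oligodendrocyte lineage, gave 397, 633 and 593, then 425, 436 and 458 (log2 fold change -0.26, limma adjusted p = 0.42). Irx3, the next in brightness, gave 341, 162 and 204, then 279, 316 and 341 (0.44, limma adjusted p = 0.31), and the groups overlapped. Gata6, a primitive endoderm factor named after its values were seen, gave 205, 129 and 161, then 193, 312 and 202 (0.46, limma adjusted p = 0.27), again with overlapping groups. No histone mark was measured on these arrays.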

How the data were processed

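RNA of 6 iPSC clones was measured on 1-colour Affymetrix Mouse Genome 430 2.0 arrays, 1 per clone. The authors quantified signals by MAS 5.0 and deposited them as linear intensities, scaled per array and not log-transformed. Presence calls and probe-level values were not used here. The table holds 45101 probe sets, of which 64 are controls and were dropped. Of the others, 34945 had 1 gene symbol in the platform annotation, 932 several and 9160 none; genes were located in RefSeq, GRCm38.p6.

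Probe sets with a mean of log2(signal + 16) above the median of all (22518) were tested in R 4.3.3 with limma 3.58.1 (lmFit, eBayes with trend) on group alone, 2-sided, with Benjamini-Hochberg adjustment over all of them and calls under 0.05. Where a gene has several probe sets, lists read the brightest. The members, lists and tests were chosen with earlier results of these data known. All member probe sets were named. Of each other list the rule took up to 4 called genes, or else up to 3 of the highest signal, and some of these are described. For chromosomal shifts, each tested gene whose mean signal passed 500 was compared with its own median over the 6 clones. The alternatives were leaving out each clone, the methods' t-test, a gene's probe sets averaged, arrayWeights, eBayes without trend, a filter at a mean signal of 500 or none, pseudocounts of 64 and 1, a common median and quantile normalization. Leaving out clones 1 and 4, and subtracting the local chromosomal shift, were added after seeing the data. The clones are separate lines, so p-values set the group difference against the spread between 3 clones per group. In limma that spread is moderated with the values of all tested probe sets. The number of arrays limits the precision. The sources used here give no scan or hybridisation batches, so batch and group cannot be told apart. Python 3.11.15 and matplotlib 3.10.9 drew the figures.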

Additional observations from a re-analysis of the deposited data

How the results depend on the processing

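The 3 calls among PRC2 probe sets became 0 with quantile normalization, with no filter, in eBayes without trend, with a gene's probe sets averaged and in the methods' t-test after Benjamini-Hochberg adjustment, and 0 to 3 when 1 clone was left out. Without clones 1 and 4, a choice made after seeing the data, they became 7: 5 Mtf2 probe sets, Ezh1 1449023_a_at and Suz12 1420020_at. No direction of a called result turned.

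Over all tested probe sets, 305 were higher and 398 lower. After scaling to a common median, which moved the median log2 fold change by 0.15, 917 were higher and 238 lower, so the balance of directions depends on the scaling. Quantile normalization gave 255 lower, no filter 101 higher and 120 lower, a mean signal above 500 gave 165 lower, eBayes without trend 87 higher and 178 lower, arrayWeights 1015 higher and 1512 lower, the mean of a gene's probe sets 99 higher and 69 lower, and the methods' t-test after adjustment 0 higher and 1 lower. Leaving out 1 clone gave 27 to 446 higher and 25 to 515 lower, and leaving out clones 1 and 4 gave 535 higher. Without adjustment the methods' t-test gave a p under 0.05 for 6 of the 25 tested member probe sets, against 3999 of all 22518. The methods' threshold asks for 2.5-fold, that p and a mean signal above 500. It was passed by 0 member probe sets and by 36 of all tested.

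The 0 calls in the gene lists around PRC2 became 4 after scaling to a common median, 1 with a pseudocount of 64, 8 with arrayWeights, 1 with the mean of a gene's probe sets, 0 to 3 without 1 clone and 4 without clones 1 and 4. The cause of these changes was not tested. No paired analysis was possible because no clone number occurs in both groups. The 3 arrays per group limit the precision, and signals near the background cannot be ranked.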
